A study of Rattus norvegicus with 22 samples.

Results

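The acid-base genes of the intercalated cells of the collecting duct were examined by RNA sequencing in the left kidneys of 22 rats, males of the PKD/Mhm (Cy/+) strain. The genes were Slc4a1, Slc26a4, Slc4a9, Atp6v1b1, Atp6v0d2, Atp6v1g3, Foxi1, Rhcg, Rhbg and Aqp6. They were chosen by name as genes of this cell type and not by their values, though earlier results of these data were known. All 10 were found by their rat Entrez identifiers among the 17334 genes listed for each kidney, and all 10 passed the filter on low counts.

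Intercalated cells move acid and base between the blood and the urine. In type A cells a proton pump in the apical membrane, the V-ATPase, acidifies the urine, and the anion exchanger Slc4a1 (AE1 or band 3) returns bicarbonate to the blood. Aqp6, a channel for water and anions, lies in the vesicles of these cells. Type B cells work in the opposite direction and secrete bicarbonate through Slc26a4 (pendrin), with Slc4a9 (AE4) at the other side of the cell. Atp6v1b1, Atp6v0d2 and Atp6v1g3 encode the V-ATPase subunits B1, d2 and G3, which are found in few cell types, while most subunits are made in all cells. Rhcg and Rhbg carry ammonia, through which acid leaves in the urine, and Foxi1 is the forkhead transcription factor on which the identity of intercalated cells depends. Slc4a1 is also the band 3 protein of red blood cells, and the deposited values per gene do not separate its renal from its erythroid transcript.

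All 22 rats carried the heterozygous Cy mutation, which causes polycystic kidneys, and were 8 months old. The untreated group held 6 rats. In 2 groups of 6 rats, human adipose-derived stromal cells (ASC) were injected, by the i.p. route in one and by the i.v. route in the other. A further group received ASC-derived CM, the conditioned medium in which such cells had grown, and 4 of its rats are in these data. The study assigned 6 rats to each group, and why fewer are present here is not stated. Injections were given once a month for 6 months. The labels give no route for the medium, and the sources of the study name both the i.v. and the i.p. route. The comparisons asked how long-term treatment with human cells or their medium changed the gene profile of the cystic kidney. No non-cystic rats were analysed here, so the levels below are those of cystic kidneys and no difference from a healthy kidney can be given. The left kidney was sequenced as whole tissue, and for every value below fewer intercalated cells and less RNA per cell cannot be told apart. The total count per rat ran from 12195663 to 14734753, and a member had between 1035 and 9068 counts in a rat, so that the spread between rats and not the depth limited the comparisons.

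Because Foxi1 is a forkhead factor, the 250 bases before the start of each gene were searched for the forkhead core TAAACA on both strands, in the RefSeq promoters of the rat assembly GRCr8. Entries were found for 8 of the 10 members. The core was present in the promoters of 2 of these 8 genes, Atp6v1b1 and Atp6v1g3, and in 12.1% of all 33469 rat promoters of this length. The longer form GTAAACA, which contains the shorter one, was present in Atp6v1b1 and in 3.21% of all promoters. The promoters of these V-ATPase genes are shown because they were the ones among the members that held the core. They are given 5′ to 3′ on the strand of the gene, with the core, which lies on the opposite strand and therefore reads TGTTTA, in capitals. The Atp6v1b1 sequence lies at chr4:117781194-117781443 and the Atp6v1g3 sequence at chr13:52362082-52362331, both on the plus strand.
Atp6v1b1: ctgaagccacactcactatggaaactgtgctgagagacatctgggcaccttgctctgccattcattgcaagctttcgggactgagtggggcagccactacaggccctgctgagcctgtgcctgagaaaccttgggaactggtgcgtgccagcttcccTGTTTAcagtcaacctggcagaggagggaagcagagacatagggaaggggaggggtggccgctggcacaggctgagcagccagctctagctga
Atp6v1g3: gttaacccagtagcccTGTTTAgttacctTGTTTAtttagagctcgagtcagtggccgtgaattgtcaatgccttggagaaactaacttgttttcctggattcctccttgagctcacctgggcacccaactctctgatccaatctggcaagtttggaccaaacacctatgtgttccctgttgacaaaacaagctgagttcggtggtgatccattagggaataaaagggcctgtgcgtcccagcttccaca
In Atp6v1b1 the match began 93 bases before the start of the gene. In Atp6v1g3 there were 2 matches, at 234 and 221 bases. A match describes these letters only, and a promoter without one says nothing about Foxi1.

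The members were among the more abundant genes of the kidney. The TPM scale corrects for transcript length and so allows genes to be compared. On it, their means over the 22 rats lay between the 88.5th and the 96.6th percentile of the genes with a mean above 0. The highest mean was that of Atp6v1g3, with 285 ± 57.7 TPM (SD, n = 22), followed by Rhcg with 257 ± 49.9 TPM (SD, n = 22). Aqp6, Slc26a4, Rhbg and Atp6v1b1 followed closely, at 214 ± 78.8, 208 ± 54.0, 203 ± 36.8 and 197 ± 39.6 TPM (SD, n = 22). Lower levels were found for Atp6v0d2 (139.9 ± 28.5 TPM), Slc4a9 (111 ± 28.1 TPM), Slc4a1 (94.7 ± 34.4 TPM) and Foxi1 (92.5 ± 22.1 TPM). Neighbours in this order differed by less than the SD between rats, except that Atp6v0d2 lay below Atp6v1b1, and Slc4a9 below Atp6v0d2, by more than the SD of either gene. The type A gene Slc4a1 therefore lay below the type B gene Slc26a4 in mean level.

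The 10 genes did not vary between rats to the same degree. Rhbg varied least, with a coefficient of variation of 18.1% and a highest value 2.00 times the lowest. The ammonia channel Rhcg and the 3 V-ATPase subunits were also steady, at 19.5% to 20.4%. Slc4a1 and Aqp6, the genes of type A cells, varied most, at 36.3% and 36.9%, with a highest value 4.39 and 3.83 times the lowest. Slc26a4 varied 4.06-fold between rats. After the group means were removed, the SD on the log2 CPM scale (CPM, the count scaled to the library's total) was 0.50 for Slc4a1 and 0.48 for Aqp6, and between 0.19 and 0.31 for the other 8 members.

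**Figure D1:**
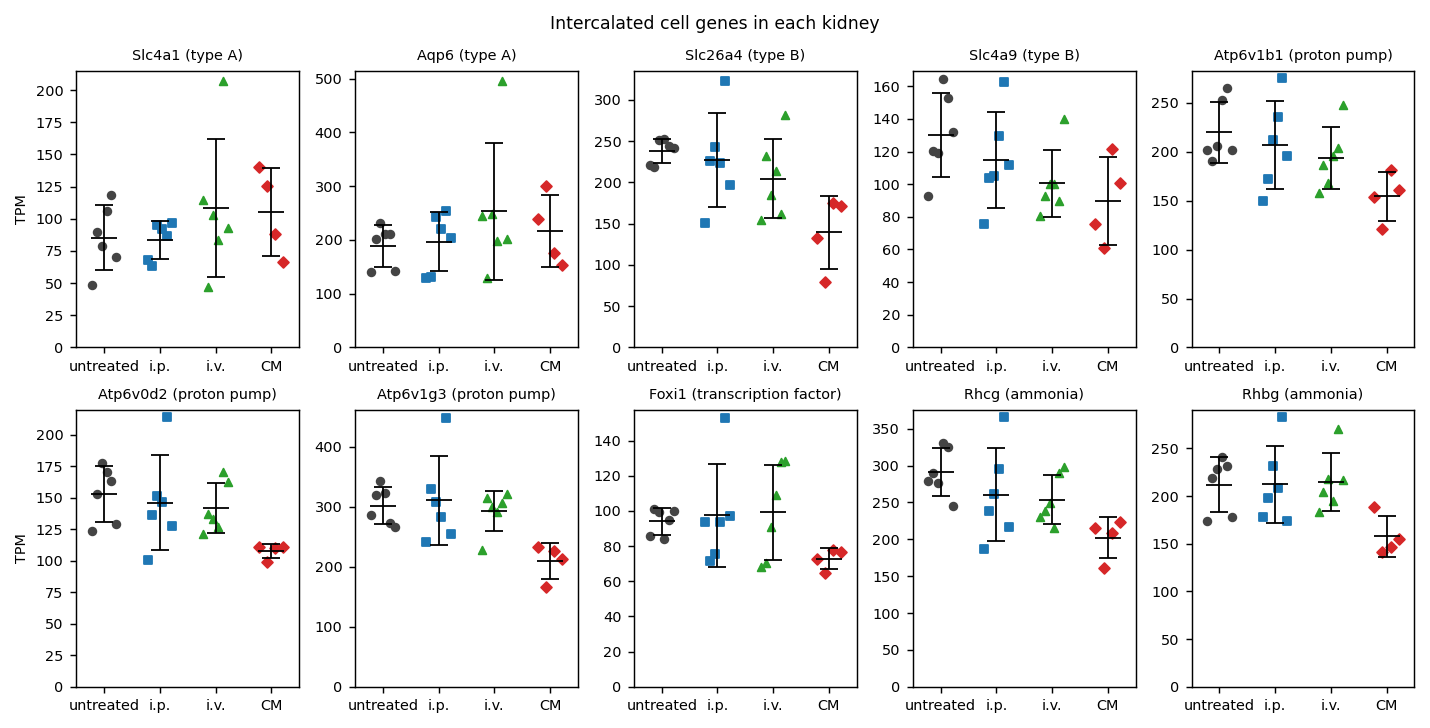
Level of each intercalated cell gene in TPM (y axis, from 0) in the untreated rats and the 3 treated groups (x axis), with 1 point per rat and the mean ± SD of the group in black. The 4 ASC-derived CM rats lie below all 6 untreated rats for 6 genes (Slc26a4, Atp6v1b1, Atp6v0d2, Atp6v1g3, Foxi1 and Rhcg), and for 1.12% of all genes tested. On the CPM scale of the test this holds for 2 members, Slc26a4 and Atp6v1b1, and for 0.987% of all genes. Slc4a1 and Aqp6 overlap in every comparison.

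After ASC i.p. none of the 10 members passed the test against untreated rats. Counts were compared with the quasi-likelihood test of edgeR, with Benjamini-Hochberg adjustment of p over 12867 genes, and 0% of all genes and 0 members had an adjusted p below 0.05. DESeq2 also called 0% and 0 members. At an unadjusted p below 0.05, 2.14% of all genes were lower and 0 members were lower or higher. Of the members, 3 had a log2 fold change below 0 and 7 above 0. The range was -0.10 to 0.14 with a median of 0.033, against -0.014 over all genes tested. The adjusted p-values of edgeR ran from 0.829 to 0.996. The i.p. and untreated rats overlapped for every member, while 0.124% of all genes had every i.p. rat below every untreated rat on the CPM scale.

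Slc26a4 ranged from 151 to 323 TPM after ASC i.p. (median 225, n = 6) and from 218 to 252 TPM in untreated rats (median 243, n = 6). The pendrin gene was thus more spread out in the treated group, around nearly the same level, and the log2 fold change was 0.02 (SE 0.17). Foxi1 ran from 71.3 to 153 TPM after ASC i.p. (median 93.8) against 84.0 to 101 TPM in untreated rats (median 97.0). A single animal, i.p. rat 16, had the highest value of its group for 9 of the 10 members, among them Foxi1 at 153 TPM. Its Slc4a1, at 86.5 TPM, was not raised and lay within the range of 63.0 to 96.8 TPM of the group. At the other end, i.p. rat 5 had the lowest value of its group for 7 members.

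After ASC i.v. again none of the 10 members passed the test. The edgeR test called 0% of all genes and 0 members. DESeq2 called 0.183% of all genes, which was 28 genes, and 0 members. At an unadjusted p below 0.05, 5% of all genes were lower and 0 members were lower or higher. Here 4 members had a log2 fold change below 0 and 6 above 0, with a median of 0.035 against -0.011 over all genes tested. The largest were those of Aqp6, at 0.53 (SE 0.26, adjusted p = 0.523, edgeR), and of Slc4a1, at 0.44 (SE 0.27, adjusted p = 0.537, edgeR), and both genes mark type A cells. The lowest was that of the type B gene Slc4a9, at -0.27 (SE 0.15, adjusted p = 0.526, edgeR). Every member overlapped between the i.v. and the untreated rats, while 0.155% of all genes had every i.v. rat below every untreated rat on the CPM scale.

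The Slc4a1 and Aqp6 values after ASC i.v. rested on few animals. Aqp6 ran from 129.6 to 496 TPM (median 223) after ASC i.v. and from 140.1 to 231 TPM (median 206) in untreated rats. Slc4a1 ran from 47.2 to 207 TPM (median 98.0) against 48.7 to 118 TPM (median 84.5). Both maxima came from i.v. rat 13, in which Slc26a4 was only 161 TPM. The i.v. group also held RNA of the urothelium, the lining of the urinary tract. The summed TPM of 5 of its 6 marker genes that are listed (Upk1a, Upk1b, Upk2, Upk3a and Krt5) ran from 2.38 to 542 after ASC i.v. and was at most 16.4 in a rat of the other groups. Upk2 was at 0 in the median untreated rat. After ASC i.v. 0 of these 5 genes passed the adjusted threshold of edgeR and 4 passed that of DESeq2. In 4 i.v. rats, numbers 3, 9, 10 and 13, this sum exceeded that of every rat outside the group, at 323, 542, 23.1 and 125 TPM. Rat 10 did so by little, as untreated rat 23 was at 16.4 TPM and was kept below. Without these 4 rats, a setting added once the values were known and which leaves 2 i.v. rats, the log2 fold change was -0.28 for Slc4a1, -0.14 for Aqp6, 0.16 for Slc26a4 and 0.04 for Atp6v1b1, so that the sign of all 4 turned. Whether the urothelial RNA had a part in these values was not tested.

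After ASC-derived CM most of the members were lower than in untreated rats, but none passed the test over all genes. Slc26a4 was at 0.606 of its untreated level, and Slc4a9, Rhcg, Atp6v1g3, Atp6v1b1, Atp6v0d2 and Rhbg were at 0.713 to 0.787 of theirs. At an unadjusted p below 0.05, 7 of the 10 members were lower and 0 were higher, where 3.75% of all genes tested were lower. The edgeR test with adjustment over all genes called 0% of genes and 0 members. DESeq2 called 0.0262%, which was 4 genes, and 0 members. The median log2 fold change of the members was -0.437, against -0.003 over all genes tested. The exceptions were Slc4a1 and Aqp6, both above 0 in log2 fold change.

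Slc26a4, through which type B cells secrete bicarbonate, was 132, 79.6, 175 and 171 TPM in the 4 ASC-derived CM rats (numbers 2, 11, 19 and 21). In the 6 untreated rats it was 218 at the lowest, 243 at the median and 252 at the highest. Every CM rat lay below every untreated rat, and rat 11 was the lowest of all 22 animals. The log2 fold change was -0.72 (SE 0.19, adjusted p = 0.665, edgeR) with n = 4 and n = 6.

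Slc4a9, the other type B exchanger, was 75.5, 61.0, 122 and 100.5 TPM in the same 4 rats and 92.9 to 164 TPM in untreated rats (median 126). Rats 2 and 11 were below the untreated range, and rats 19 and 21 were inside it. Its log2 fold change was -0.49 (SE 0.17, adjusted p = 0.711, edgeR).

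The 3 V-ATPase subunits of intercalated cells were lower by similar amounts. Atp6v1b1 was 154, 121, 181 and 161 TPM after ASC-derived CM and 191 to 265 TPM in untreated rats (median 204), with a log2 fold change of -0.45 (SE 0.12, adjusted p = 0.711, edgeR). Atp6v0d2 was 111, 99.4, 110.1 and 111 TPM against 123 to 178 TPM (median 158), with a log2 fold change of -0.43 (SE 0.14). Atp6v1g3 was 234, 167, 226 and 212 TPM against 266 to 343 TPM (median 303), with a log2 fold change of -0.46 (SE 0.15). On the TPM scale the CM and the untreated rats did not overlap for any of these subunits. On this scale all CM rats lay below all untreated rats for 1.12% of all genes tested. On the CPM scale Atp6v0d2 and Atp6v1g3 overlapped and Atp6v1b1 did not. The 16 V-ATPase subunits and accessory proteins that are made in all cells had a median log2 fold change of -0.089, and 1 of the 16 was lower at an unadjusted p below 0.05.

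The ammonia channel Rhcg was 216, 161, 208 and 224 TPM after ASC-derived CM and 246 to 330.2 TPM in untreated rats (median 284), with a log2 fold change of -0.46 (SE 0.14, adjusted p = 0.711, edgeR). Rhbg, which lies in the basolateral membrane, was 189, 141, 147 and 155 TPM against 174 to 242 TPM (median 224), and rat 2 was inside the untreated range. Foxi1 was 72.5, 64.6, 77.7 and 76.6 TPM against 84.0 to 101 TPM (median 97.0). Its log2 fold change of -0.31 (SE 0.17, adjusted p = 0.719, edgeR) did not reach an unadjusted p below 0.05.

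Slc4a1 was 141, 126, 88.5 and 66.4 TPM in the CM rats, against 48.7 to 118 TPM in untreated rats. Aqp6 was 239, 301, 175 and 153 TPM against 140.1 to 231 TPM. For both genes rats 2 and 11 lay above the untreated range and rats 19 and 21 inside it. The log2 fold changes were 0.39 (SE 0.30) for Slc4a1 and 0.28 (SE 0.29) for Aqp6, and the adjusted p (edgeR) was 0.833 and 0.885.

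The number of genes without overlap depended on the scale. On the TPM scale all 4 CM rats lay below all 6 untreated rats for 6 of the 10 members, where 1.12% of all genes tested did so. On the CPM scale of the edgeR test, with TMM size factors, this was so for 2 members, Slc26a4 and Atp6v1b1, and for 0.987% of all genes. Rat 11 had the lowest value of the CM group for 8 of the 10 members. Without this rat 5 members were lower at an unadjusted p below 0.05, and with any other rat of the 2 groups left out 6 or 7 were.

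**Figure D2:**
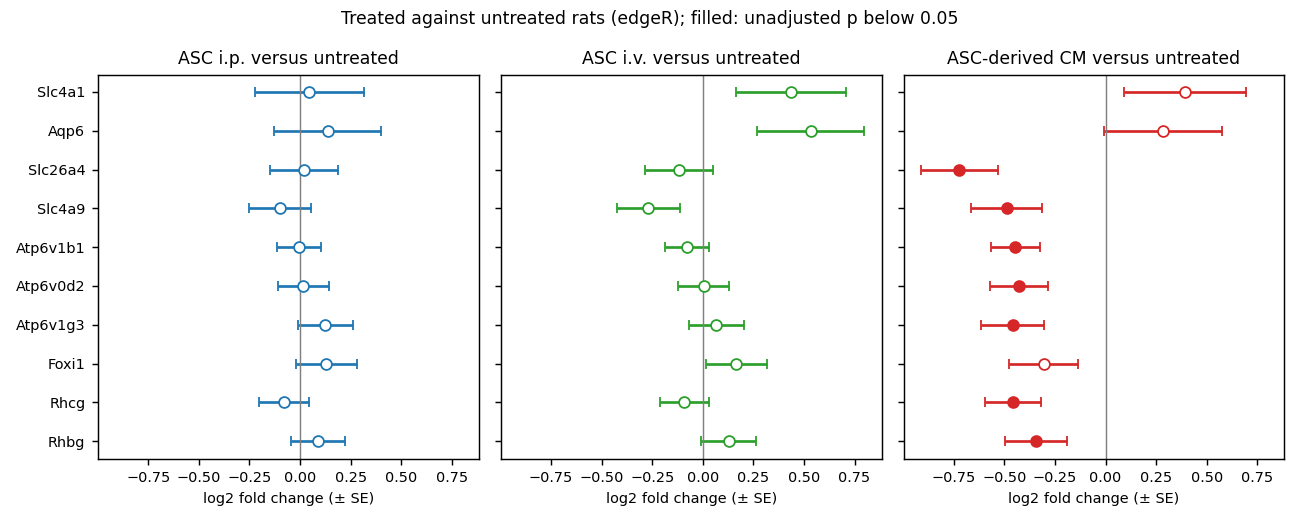
Log2 fold change (x axis, with SE) of each intercalated cell gene (y axis) in the 3 treated groups against untreated rats, from edgeR, with filled points where the unadjusted p was below 0.05. After ASC-derived CM 8 genes lie to the left of 0, from -0.31 for Foxi1 to -0.72 for Slc26a4, and Slc4a1 and Aqp6 lie to the right. No adjusted p-value was below 0.05.

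Other genes of the distal nephron were compared in the same CM rats, and none passed the adjusted threshold. Over all genes tested 50.9% had a log2 fold change below 0 and 3.75% were lower at an unadjusted p below 0.05. Of 20 further genes of intercalated cells that were tested, out of 21 listed and 24 named, 18 had a log2 fold change below 0, with a median of -0.286, and 5 were lower at an unadjusted p below 0.05. Of the 8 genes of principal cells, the other cell type of the collecting duct, 3 were lower at an unadjusted p below 0.05, and the median log2 fold change was -0.102. Aqp2, the water channel of principal cells, had a log2 fold change of -0.04. Of 7 genes of the thick limb and the distal convoluted tubule, 6 were listed and 5 tested. Of these 5, 1 was higher and 1 lower at an unadjusted p below 0.05, with log2 fold changes from -0.79 to 0.91. Over all 12867 genes tested, 366 were higher at this limit. The summed level of the 6 listed genes ran from 1961 to 5529 TPM in the CM rats and from 1975 to 3997 TPM in untreated rats. In this group Slc12a3, the salt transporter of the distal convoluted tubule, was 184 and 239 TPM in CM rats 2 and 11, 762 and 498 TPM in rats 19 and 21, and 551 to 965 TPM in untreated rats. Slc12a1, the salt transporter of the thick ascending limb, was 540.5 and 482 TPM in rats 2 and 11, 301 and 154 TPM in rats 19 and 21, and at most 279 TPM in untreated rats. Both were named after their values were seen. The rats with the lowest type B genes were therefore also those with low Slc12a3 and high Slc12a1. The part of these segment genes in the values of the members was not tested. No list named here held a gene past the adjusted threshold of edgeR.

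The effects of the cells and of the medium on the members were each measured against the same 6 untreated rats, and the difference between these effects was not tested.

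Most of the members varied together over the 22 rats. Of the 45 pairs, 26 were correlated at an adjusted p below 0.05 (Pearson's r of log2 CPM, 100000 permutations, two-sided, adjusted over 85 relations), and all 26 had a positive r. Spearman's rho called 21 of the 45. The smallest p these permutations can give is 1e-05, and 7.08e-05 is the smallest adjusted p reached with it. After removal of the group means all 26 still had an r above 0, from 0.321 to 0.906. Within single groups some did not hold. After ASC i.v. Slc26a4 had r = -0.353 with Rhbg, -0.131 with Rhcg and -0.078 with Atp6v0d2. These values were 0.795, 0.473 and 0.856 in untreated rats, and 0.833, 0.938 and 0.954 after ASC i.p. For Atp6v1b1 with Foxi1 r was -0.253 in untreated rats, 0.491 after ASC i.p. and 0.563 after ASC i.v. Without the 2 rats farthest from the median of the first gene, 20 of the 26 kept an unadjusted permutation p below 0.05. The relations of Slc26a4 with Rhbg, of Slc4a9 with Atp6v0d2 and Atp6v1g3, and of Foxi1 with Atp6v1b1, Atp6v1g3 and Rhcg did not, and so rest on those rats.

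**Figure D3:**
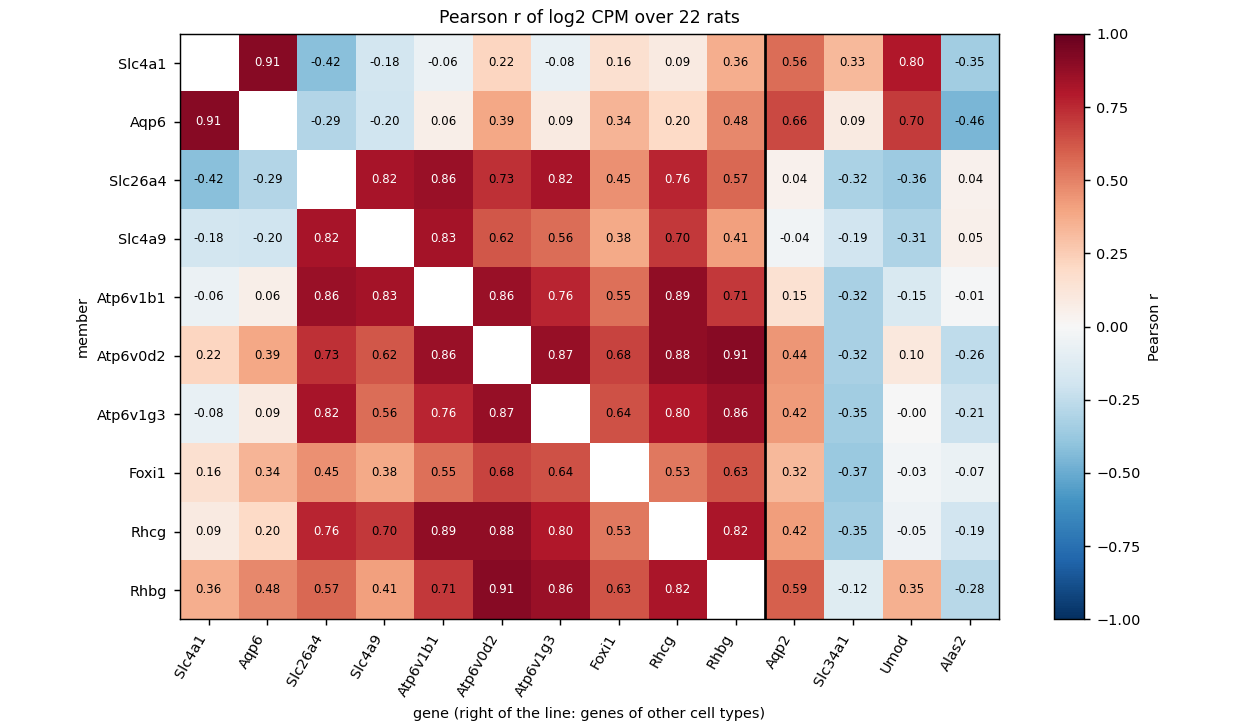
Pearson's r of log2 CPM over 22 rats between the intercalated cell genes, and right of the line between them and genes of principal cells (Aqp2), proximal tubule (Slc34a1), thick limb (Umod) and red cells (Alas2). Slc4a1 and Aqp6 form a pair with r = 0.91, and neither passed the adjusted threshold with any of the other 8 members.

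The strongest relation by r was that of the V-ATPase subunit Atp6v0d2 with the ammonia channel Rhbg (r = 0.912, rho = 0.896, adjusted permutation p = 7.08e-05). By rho it was that of Atp6v0d2 with Rhcg (rho = 0.899, r = 0.883). By r, Slc4a1 with Aqp6 (r = 0.907) and Atp6v1b1 with Rhcg (r = 0.888, rho = 0.877) followed closely. Slc26a4 was related to its type B partner Slc4a9 (r = 0.821, rho = 0.741) and as closely to Atp6v1b1 (r = 0.861, rho = 0.782). The transcription factor Foxi1 was less closely related to its fellow members, with r from 0.160 to 0.678. For 5 of its 9 relations the adjusted p of r was below 0.05, and for rho this was 1.

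Slc4a1 and Aqp6 were closely related to each other, and neither passed the adjusted threshold with any of the other 8 members. Their r was 0.907 (rho = 0.877, adjusted permutation p = 7.08e-05), and 0.875 without the 2 rats farthest from the median of Slc4a1. The relation was seen within the groups of 6, with r = 0.804 in untreated rats, 0.945 after ASC i.p. and 0.971 after ASC i.v., and the 4 CM rats were too few for a value. Relations below the threshold over all rats were also seen within groups. Aqp6 had r = 0.478 with Rhbg over the 22 rats (adjusted permutation p = 0.065), 0.609 with the group means removed and 0.974 in untreated rats, and for Aqp6 with Atp6v0d2 these values were 0.385 (adjusted permutation p = 0.162), 0.564 and 0.990. In untreated rats Slc4a1 had r = 0.929 with Slc4a9 and 0.853 with Rhbg, against -0.184 and 0.364 over all rats. Across all rats Slc4a1 and Slc26a4, the bicarbonate exchangers of type A and type B cells, had r = -0.418 (rho = -0.289, adjusted permutation p = 0.124). With the group means removed r was -0.394, and the groups differed in sign, with r = 0.544 in untreated rats, 0.241 after ASC i.p. and -0.908 after ASC i.v.

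**Figure D4:**
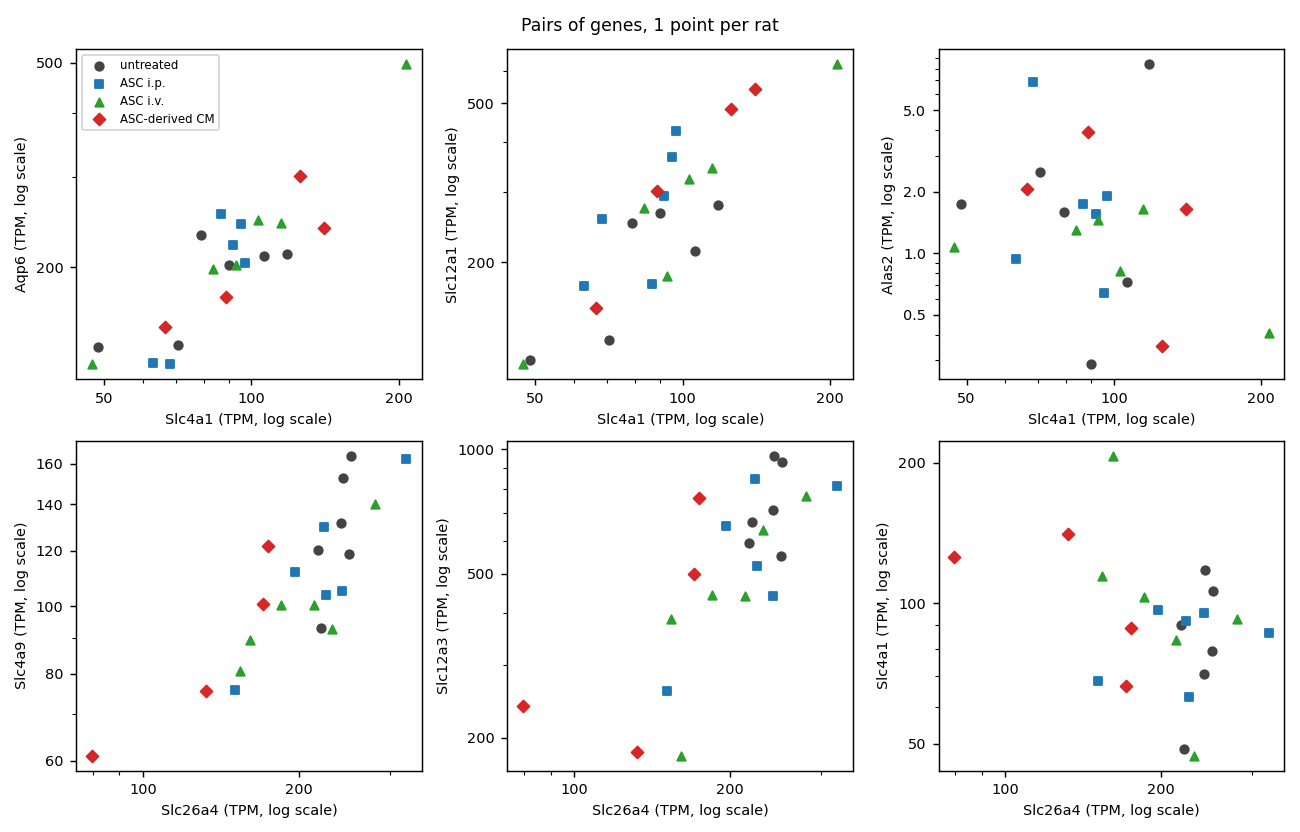
Levels of pairs of genes in each rat (TPM, log scales), coloured by group. Slc4a1 rises with Aqp6 and with Slc12a1 over the rats and shows no such course with Alas2, while Slc26a4 rises with Slc4a9 and Slc12a3 and not with Slc4a1.

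The members were also set beside genes of other cells. Of 40 relations with 4 reference genes, 5 passed the adjusted threshold. Umod, the uromodulin of the thick ascending limb, was related to Slc4a1 (r = 0.799, rho = 0.791, adjusted permutation p = 0.000196) and to Aqp6 (r = 0.698, rho = 0.802, adjusted permutation p = 0.00134). Its relations with the other 8 members did not pass the threshold. Aqp2 was related to Aqp6 (r = 0.657), Rhbg (r = 0.594) and Slc4a1 (r = 0.557), with adjusted permutation p-values of 0.0034, 0.0116 and 0.0215. For Slc4a1 the rho of 0.488 did not pass (adjusted permutation p = 0.0677). Within groups the relation of Slc4a1 with Umod had r = 0.933 in untreated rats, 0.416 after ASC i.p. and 0.766 after ASC i.v. In untreated rats Umod was as closely related to Rhbg (r = 0.956) and Atp6v0d2 (r = 0.933), for which r over all rats was 0.354 and 0.105. No relation with Slc34a1, the phosphate transporter of the proximal tubule, passed the threshold, with r from -0.368 to 0.328. After the data were seen, Slc12a1 and Slc12a3 were set beside the members as a description. Slc12a1 had r = 0.889 with Slc4a1 and 0.824 with Aqp6, against -0.533 with Slc26a4. Slc12a3 had r = 0.794 with Slc4a9 and 0.678 with Slc26a4, against -0.579 with Slc4a1.

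Red cells left in the tissue can carry the Slc4a1 transcript too, and the erythroid genes were therefore set beside it. Alas2, which starts heme synthesis in red cell precursors, had r = -0.351 with Slc4a1 (rho = -0.370, adjusted permutation p = 0.199) and ran from 0.29 to 8.4 TPM. Untreated rat 23 had the highest hemoglobin RNA of all rats, with Hba-a1 at 3498 TPM and Hbb at 1092 TPM, and its Slc4a1 was 118 TPM. In i.v. rat 13, with the highest Slc4a1 of 207 TPM, Hba-a1 was 219 TPM, the lowest of the 22. Of 18 erythroid genes named, 16 were listed and 10 passed the filter. Rhag, the red cell relative of Rhcg and Rhbg, was at most 0.1 TPM, and Gata1 at most 0.3 TPM, in any rat. The summed erythroid level ran from 558 to 6358 TPM in untreated rats (median 800) and from 660 to 2845 TPM after ASC i.p. (median 976). It ran from 359 to 1288 TPM after ASC i.v. (median 764) and from 386 to 2167 TPM after ASC-derived CM (median 1031). The untreated maximum was that of rat 23, and the next highest untreated rat, number 24, had 1731 TPM. The medians of the i.p. and CM groups thus lay above the untreated median. Of the 10 erythroid genes tested, 8 had a log2 fold change below 0 in the i.p. group, 10 in the i.v. group and 9 in the CM group. Over all genes tested 53.8%, 52.5% and 50.9% did so. These fold changes compare group means, which in the untreated group include the high values of rat 23. The log2 fold change of Slc4a1 was 0.05, 0.44 and 0.39. At an unadjusted p below 0.05, 1 of these 10 was lower in the i.p. group, 2 in the i.v. group and 0 in the CM group. The part of red cells in the Slc4a1 values was not tested further.

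The balance between the types was described by the ratio of Slc4a1 to Slc26a4 within a kidney, on the TPM scale. It ran from 0.220 to 0.486 in untreated rats (median 0.364, n = 6) and from 0.268 to 0.492 after ASC i.p. (median 0.402, n = 6). After ASC i.v. it ran from 0.204 to 1.29 (median 0.474, n = 6). In the ASC-derived CM rats 2, 11, 19 and 21 it was 1.06, 1.58, 0.507 and 0.389. Slc4a1 thus exceeded Slc26a4 in 3 of the 22 kidneys, CM rats 2 and 11 and i.v. rat 13. With Aqp6 in place of Slc4a1 the ratio was 0.585 to 0.924 in untreated rats (median 0.852). It ran from 0.576 to 1.04 after ASC i.p. (median 0.9235) and from 0.5595 to 3.08 after ASC i.v. (median 1.13). In CM rats 2 and 11 it was 1.80 and 3.77, against 0.896 in CM rat 21 (median of the group 1.403). Each treated group thus held rats above the untreated range, and the i.p. and i.v. groups each also held a rat below it. The ratio of Slc26a4 to the V-ATPase subunit Atp6v1b1, made in both cell types, ran from 0.918 to 1.22 in untreated rats and was 0.860, 0.656, 0.963 and 1.06 in the CM rats. These ratios were chosen as a description and were not tested.

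**Figure D5:**
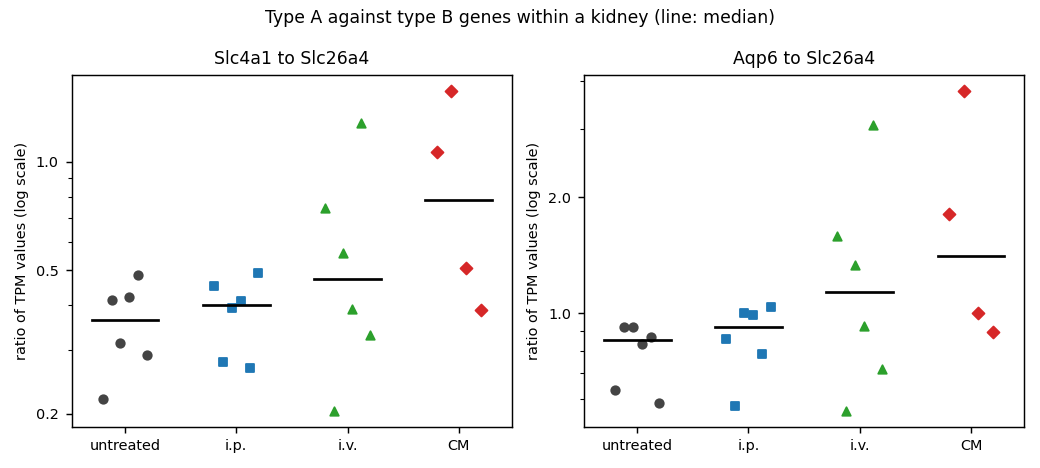
Ratio of the type A genes Slc4a1 (left) and Aqp6 (right) to the type B gene Slc26a4 in each kidney (TPM, log scale) by group, with the median as a line. The untreated rats lie between 0.220 and 0.486 (left) and between 0.585 and 0.924 (right), and CM rats 2 and 11 and i.v. rat 13 lie above 1 in both panels.

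The genes whose pattern was most like that of each member were sought among the 12867 genes tested, by Pearson's r of log2 CPM over 22 rats with the group means removed. They are given as a description. For Slc4a1 they were Slc12a1 (r = 0.905), Pax2 (r = 0.872) and Epb41l1 (r = 0.867), and for Aqp6 Grb7 (r = 0.890), Dmrt2 (r = 0.883) and Cgnl1 (r = 0.871). Slc26a4 had Insrr (r = 0.875) and Sytl5 (r = 0.849) among the genes most like it. Slc4a9 was most like Insrr (r = 0.934), the receptor related to the insulin receptor that responds to alkaline pH, and Tmprss2 (r = 0.870) was also among the genes most like it. Insrr thus appeared for both type B genes.

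Among the V-ATPase subunits, Atp6v1g3 was most like Atp6ap1 (r = 0.908), an accessory protein of the same pump, followed by Defb1 (r = 0.859) and Fam118b (r = 0.844). Atp6v0d2 was most like Atp6v1c2 (r = 0.885), another subunit of the pump, followed by Tmem50b (r = 0.843) and Muc20 (r = 0.833). Atp6v1c2 also appeared for Rhbg (r = 0.855, with Muc20 at 0.861 and Thap4 at 0.840) and for Rhcg (r = 0.799, with Tmem50b at 0.800 and Dnase1 at 0.799). Atp6v1b1 was most like Bcar3 (r = 0.822), Hepacam2 (r = 0.815) and Prkag2 (r = 0.808). The values for Foxi1 were the lowest of the 10 members, with Acp6 (r = 0.775), Zbtb45 (r = 0.759) and Cdc42ep4 (r = 0.758).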

How the data were processed

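RNA of whole left kidney was sequenced on a BGISEQ-500 instrument, 1 library per rat. For each of 17334 rat Entrez genes the authors deposited an estimated count and, scaled for transcript length and library total, a TPM value. The submitters' processing notes name Trim Galore 0.6.4, kallisto 0.4.6 and the genome build rn6, and how reads shared between similar genes were split follows from that program. Symbols were taken from a RefSeq table of another rat assembly (GRCr8), for names only, and matched 17179 genes. The labels gave each rat's group and number. No animal was in more than 1 group, so the design had no pairs, and nothing in the labels gave a batch. Within a group no 2 libraries agreed within sampling noise (chi-square per gene of at least 7.51).

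Counts that were not whole (14.1%) were rounded. The main test was the quasi-likelihood F test of edgeR 4.0.16 (R 4.3.3). It used TMM factors and filterByExpr, a joint fit of the 4 groups, 12867 genes after the filter, and p-values adjusted by Benjamini-Hochberg, with 0.05 as the limit. For log2 CPM the prior count was 2. The procedure was tested on simulated data. DESeq2 1.42.0, RLE factors, no filter, a minimum of 10 counts in all rats, a fit of 2 groups alone, limma-trend (limma 3.58.1) on log2(TPM + 1), and leaving out single rats were the alternatives. Leaving out 4 i.v. rats, and counting members at an unadjusted p below 0.05, were added after the data were seen. Correlations used 100000 permutations of rats.

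The members and the gene lists were chosen with earlier results of these data known. The genes named are the 10 members, the reference genes Aqp2, Slc34a1, Umod and Alas2, members of other lists past the adjusted threshold of edgeR (none), and the 3 genes most like each member, of which some are not reported here. Others are named as examples after their values were seen.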

Additional observations from a re-analysis of the deposited data

Results flagged for a closer look

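Of 40 sets of values, 10 members in 4 groups of rats, 5 held a rat that stood apart from the others of its group by Dixon's criterion, where chance would give about 2. In i.v. rat 13 Aqp6 was 496 TPM, against 129.6 to 247 TPM in the other 5 rats of the group, and Slc4a1 was also the highest there. In i.v. rat 14 Slc4a9 was 139.9 TPM against 80.6 to 100.4 TPM. In i.v. rat 3 Atp6v1g3 was 228 TPM against 291 to 321 TPM. In i.p. rat 16 Foxi1 was 153 TPM against 71.3 to 97.3 TPM. In ASC-derived CM rat 11 Atp6v0d2 was 99.4 TPM, against 110.1 to 111 TPM in the other 3 rats.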

How the results depend on the processing

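No member was called at an adjusted p below 0.05 under any setting, and the lowest adjusted p of a member was 0.589 for ASC i.p., 0.274 for ASC i.v. and 0.189 for ASC-derived CM (Slc26a4, DESeq2). After ASC-derived CM none of 160 log2 fold changes of members under the alternatives changed sign, and the count of members lower at an unadjusted p below 0.05 stayed at 7 in all settings that kept every rat and ran from 5 to 7 with a rat left out. After ASC i.v. this count ran from 0 to 1 with a rat left out. Genes called over the whole table were 28 (DESeq2) and 0 to 14 with a rat left out after ASC i.v. (11 without i.v. rat 8, 14 without i.v. rat 14), and 4 (DESeq2) and 1 (only the 2 groups) after ASC-derived CM. Of the members' log2 fold changes, 23 of 180 changed sign after ASC i.p. and 10 of 190 after ASC i.v. For ASC i.p. this was Atp6v1b1 at 0.0099 (DESeq2), 0.0095 (RLE), 0.0021 (no filter) and 0.0099 (only the 2 groups), and on the TPM scale Slc26a4 at -0.10, Atp6v0d2 at -0.089 and Rhbg at -0.0076. With a rat left out, the i.p. ranges were -0.078 to 0.13 for Slc4a1, -0.087 to 0.11 for Slc26a4, -0.084 to 0.082 for Atp6v0d2, -0.083 to 0.061 for Atp6v1b1 and -0.020 to 0.19 for Foxi1. For ASC i.v. on the TPM scale Atp6v0d2 was -0.11 and Atp6v1g3 -0.043, and Atp6v0d2 ran from -0.057 to 0.062 with a rat left out. The TPM scale moves the median log2 fold change of all genes after ASC i.v. to -0.12. Without the 4 i.v. rats with urothelial RNA, Slc4a1 was -0.28, Aqp6 -0.14, Slc26a4 0.16 and Atp6v1b1 0.036. The causes of these changes were not tested. The counts of correlated pairs ran from 22 to 29 of 45 and of relations with reference genes from 5 to 6 of 40. No paired analysis was possible because no rat, and no rat number, occurs in more than 1 group.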

Other observations

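Acid-base genes of the proximal tubule, where most filtered bicarbonate is reclaimed, were set beside those of the intercalated cells. Of 8 such genes, all tested, 0 were lower or higher at an unadjusted p below 0.05 after ASC-derived CM, with log2 fold changes from -0.50 to 1.32 and a median of 0.376. After ASC i.p. 1 was higher and 1 lower at an unadjusted p below 0.05 (median 0.168), and after ASC i.v. 1 was higher and 2 were lower (median 0.195). Their summed level ran from 480.3 to 834 TPM in untreated rats and from 666 to 1038 TPM after ASC-derived CM, so that the groups overlapped. Of 8 genes of principal cells, 3 were higher at an unadjusted p below 0.05 after ASC i.v. and 0 after ASC i.p., with medians of 0.367 and -0.029. Of all 12867 genes tested, 490 were higher at an unadjusted p below 0.05 after ASC i.v. and 225 after ASC i.p. The highest i.v. values of Aqp2, Aqp3, Aqp4, Avpr2 and Fxyd4 came from rats 9 and 13, both with urothelial RNA. For Scnn1b, Scnn1g and Hsd11b2 this was not so. Fxyd4 was 198 and 124 TPM in these rats and 36.8 to 52.1 TPM in the other i.v. rats. The part of these rats in the i.v. values was not tested. Of 5 leukocyte genes tested, 0 were lower or higher at an unadjusted p below 0.05 in any of the 3 comparisons. None of these genes had an adjusted p below 0.05 in edgeR.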
